A study of Arabidopsis thaliana with 12 samples.

Results

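Of the 31788 loci in 3 deposited RNA-seq tables of Arabidopsis thaliana seedlings, 216 are the unnamed loci described here: the authors' gene column holds a single dash, and the locus lies outside the interval around the centromere of each chromosome. The intervals left out are 14.3 to 16.0 Mb on chromosome 1, 2.7 to 5.4 Mb on chromosome 2, 12.0 to 15.5 Mb on chromosome 3, 2.8 to 5.0 Mb on chromosome 4 and 11.0 to 14.5 Mb on chromosome 5, and they hold 18 further unnamed loci. The 216 comprise 150 nuclear loci, 58 loci on a sequence called mitochondrial and 8 on a sequence called chloroplast. The groups are the mutants pkl, clf and lhp1 and the wild type (WT), each with 3 libraries by their titles, taken from whole seedlings at 14 days. All plants grew on 1/2MS medium at 22 °C with 16 h of light and 8 h of dark. The input to the libraries was 1 µg of total RNA, and any later selection of RNA is not described here. The labels name no allele, background strain or growth batch.

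CURLY LEAF (CLF) trimethylates histone H3 at lysine 27 as part of a Polycomb complex. LIKE HETEROCHROMATIN PROTEIN 1 (LHP1) reads this mark, and PICKLE (PKL) moves nucleosomes as a remodeller of the CHD3 class. A locus without a name usually arises where assembled reads fall outside the annotated genes. In plants such stretches include long non-coding RNAs, small structural RNAs, remnants of transposons, stray extensions of nearby genes and small coding genes annotated later. Polycomb repression and transposon silencing both act on regions of the genome irrespective of whether a gene has a name there.

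The tables give 1 FPKM value per group (a read count corrected for transcript length and for the number of mapped fragments). Replicate errors therefore cannot be given, and the depth is unknown. A locus is called, and said to have risen or fallen, where the authors' test ran and their q was under 0.05. PKL stood at 6.83 FPKM in pkl against 20.8 in WT and was called lower. CLF stood at 0.264 FPKM in clf against 8.37 in WT, with q = 0.052 in the authors' deposited table. LHP1 was listed at 0 FPKM in lhp1 against 12.1 in WT and was called lower. Green shoot markers were present in every group and are given beside the organelle loci. The 5 floral organ markers summed to 7.70 FPKM in pkl, 213 in clf, 329 in lhp1 and 11.4 in WT, with 5 of 5 called higher in clf and in lhp1 and 1 called lower in pkl. Another locus of the floral marker PI was left out of these figures. It stood at 0.0251 FPKM in pkl, 0.0701 in clf, 0.572 in lhp1 and 0.0743 in WT and was not called. The 3 root markers summed to 1994 FPKM in pkl, 2108 in clf, 3542 in lhp1 and 1986 in WT. PYK10 carries most of this sum and was called higher in lhp1 alone, at 3479 FPKM against 1916 in WT. In lhp1 the other markers lay below WT and were not called, CASP1 at 44.6 FPKM against 47.7 and EXPA7 at 18.9 against 22.3. EXPA7 was called higher in pkl and CASP1 lower in clf. The 3 pollen markers summed to less than 1 FPKM in each group, and 1 of them was at 0 in all 4. In whole seedlings, fewer cells of a type and less RNA per cell cannot be told apart, and the part of these shifts in the results was not tested.

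Stretches of 5 nuclear loci are shown because the results turn on them. They are read from the RefSeq sequence of TAIR10.1, with coordinates that match those of the tables; the tables give no strand, and + or - is the strand printed. XLOC_031451 holds the highest value of the 216 in pkl, lhp1 and WT. XLOC_031447 is the shortest and carries the highest value of any locus in clf. XLOC_019578 had the highest FPKM among the loci that rose in pkl. XLOC_001631 fell and XLOC_031439 rose in all 3 mutants. In the first 3, capitals mark bases that differ from the closest copy elsewhere in the genome. In XLOC_001631 they mark bases that differ from its longest matching segment, and in XLOC_031439 the start and stop codon of its longest open reading frame.
XLOC_031451, chr5:26949679-26949856, +: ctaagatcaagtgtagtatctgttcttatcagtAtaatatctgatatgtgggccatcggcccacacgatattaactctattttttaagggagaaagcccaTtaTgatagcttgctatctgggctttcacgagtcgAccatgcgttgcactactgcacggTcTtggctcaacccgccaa
XLOC_031447, chr5:14588689-14588838, +: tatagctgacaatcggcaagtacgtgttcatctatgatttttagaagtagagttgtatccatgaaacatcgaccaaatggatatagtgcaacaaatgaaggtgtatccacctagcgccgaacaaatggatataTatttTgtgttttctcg
XLOC_019578, chr3:11983686-11983979, +: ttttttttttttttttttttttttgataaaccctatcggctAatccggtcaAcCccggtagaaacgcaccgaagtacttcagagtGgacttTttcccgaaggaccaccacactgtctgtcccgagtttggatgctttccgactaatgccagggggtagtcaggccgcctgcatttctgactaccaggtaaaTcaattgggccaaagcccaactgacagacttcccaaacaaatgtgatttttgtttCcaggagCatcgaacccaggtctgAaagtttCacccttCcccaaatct
XLOC_001631, chr1:11454163-11454462, +: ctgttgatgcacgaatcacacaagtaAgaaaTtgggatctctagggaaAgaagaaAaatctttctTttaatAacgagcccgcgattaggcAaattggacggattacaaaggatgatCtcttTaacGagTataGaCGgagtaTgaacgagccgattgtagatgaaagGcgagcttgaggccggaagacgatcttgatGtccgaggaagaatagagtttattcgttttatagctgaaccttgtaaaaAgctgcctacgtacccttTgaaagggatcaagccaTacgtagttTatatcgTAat
XLOC_031439, chr5:7891308-7891502, -: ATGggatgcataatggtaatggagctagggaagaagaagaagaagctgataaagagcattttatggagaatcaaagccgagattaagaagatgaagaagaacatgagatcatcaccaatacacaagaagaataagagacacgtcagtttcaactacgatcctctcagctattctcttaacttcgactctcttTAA

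Most of the 150 nuclear loci coincide with genes of the later RefSeq annotation. Of these loci, 42 overlap a protein-coding gene, 83 overlap only non-coding RNA genes or pseudogenes, and 25 overlap no gene. In 118 of the 125 with an overlap, none of the overlapping genes is named anywhere in the tables. The loci are shorter than named ones, with a median of 880 bases against 2423 bases for 31283 named nuclear loci. Their median GC content is 34.9%, against 39.2% for 28385 named nuclear loci outside the intervals. The longest open reading frame on either strand has a median of 61 codons, and 18 loci hold one of at least 100 codons. They lie close to named loci: 1 overlaps a pair of them, XLOC_027795 over AT5G64690 and AT5G64700, a further 94 lie within 1000 bases, and the median gap is 701 bases. The counts per chromosome are 43, 22, 27, 28 and 30 from chromosome 1 to 5.

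The unnamed loci were weakly expressed. Among the nuclear ones, 86 of 150 (57.3%) reached 1 FPKM in at least 1 group, close to the 59.8% of named nuclear loci. At 10 FPKM the shares parted, with 8 of 150 (5.33%) of the unnamed and 39.6% of the named loci. The median nuclear level was 0.604 FPKM in pkl, 0.649 in clf, 0.555 in lhp1 and 0.528 in WT. Only XLOC_007925 and XLOC_025714 were at 0 in all 4 groups (1.33%), against 26.0% of the named nuclear loci. Unnamed and named loci may have entered the tables by different routes, so these shares are a description. Among the 148 nuclear loci with a value above 0, the highest group was pkl at 39 loci, clf at 34, lhp1 at 35 and WT at 40.

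The values of the shortest loci need a warning, since FPKM divides by an effective length that becomes small when a locus is about as long as a fragment. The 2 unnamed loci under 200 bases hold the largest values of all 216. XLOC_031447, of 150 bases, had 75606.5 FPKM in clf and was listed at 0 in pkl, lhp1 and WT. In clf that value ranks first of all loci and makes 7.62% of the summed FPKM, and the next locus stood at 10608.1. It was called higher in clf with q = 0.00368 in the authors' deposited table. No fold is given against a value of 0, and the value is not read as a level. The locus overlaps AT5G05345, an uncharacterized RNA gene in RefSeq, and has 3 copies elsewhere, the closest at 98.7% identity. Its nearest named locus, the amino acid transporter gene AT5G36940, was called lower in clf, at 15.7 FPKM against 21.2 in WT. That gene was also called lower in pkl and lhp1.

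XLOC_031451, of 179 bases, had 325 FPKM in pkl, 220 in clf, 97.9 in lhp1 and 307 in WT. The lhp1 value was the lowest of the 4, but no mutant was called (q = 0.966 in pkl, 0.702 in clf and 0.243 in lhp1, in the authors' deposited table). Its sequence matches 16 places in the genome, the closest at 96.6% identity over 178 bases at U2.3 (AT3G57765). U2 is the small nuclear RNA that pairs with the intron branch site in the spliceosome. RefSeq lists the locus as AT5G09935, an uncharacterized RNA. U2.3 itself has a locus of its own in the tables, which stood at 0.669 FPKM in pkl, 0.826 in clf, 0.567 in lhp1 and 0.562 in WT. How reads shared among the copies were divided is not stated, so the level of any 1 copy is uncertain. Of 1127 named nuclear loci under 200 bases, 99.3% were at 0 in all 4 groups.

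**Figure D1:**
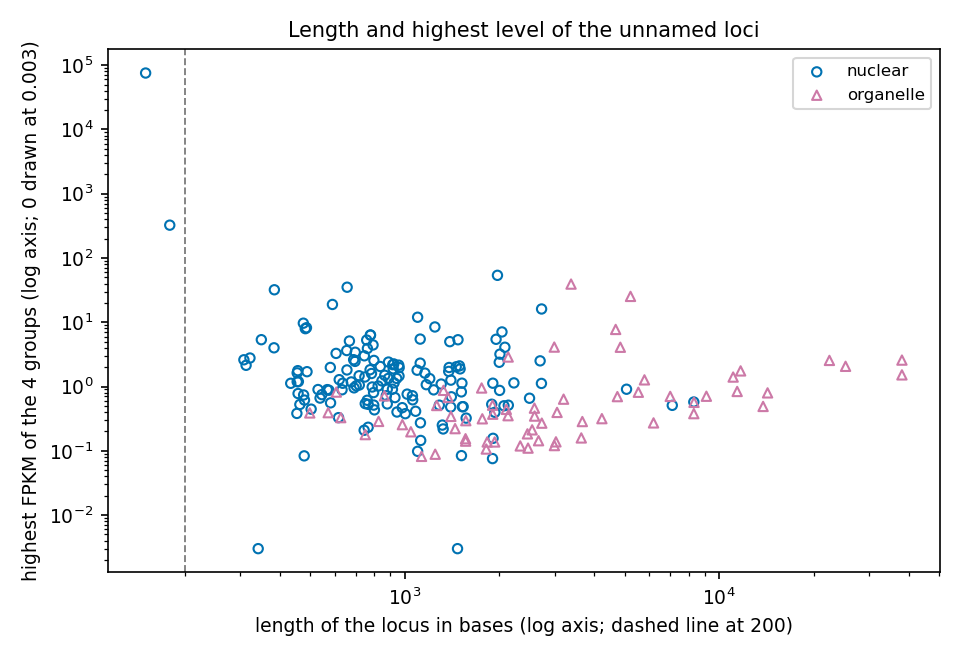
Highest FPKM of the 4 groups (log axis) against the length of each of the 216 unnamed loci (log axis), with circles for nuclear and triangles for organelle loci and values of 0 drawn at 0.003. The 2 loci left of the dashed line at 200 bases stand at 75606.5 and 325 FPKM, above all others.

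Calls were made at between 9.77% and 22.2% of the tested unnamed loci. In pkl, 17 of 132 tested unnamed loci were called, 10 higher and 7 lower, which is 12.9% against 13.5% of all tested loci (6.73% higher and 6.74% lower). In clf, 13 of 133 were called, 4 higher and 9 lower, which is 9.77% against 12.4% (7.11% higher and 5.28% lower). In lhp1, 30 of 135 were called, 9 higher and 21 lower, which is 22.2% against 21.7% (11.1% higher and 10.6% lower). The pooled share in lhp1 combines unlike parts: 14 of 31 tested organelle loci were called there (45.2%), all lower, and 16 of 104 tested nuclear loci (15.4%), 9 higher and 7 lower. On the nuclear chromosomes 15 of 101 tested loci were called in pkl (14.9%), 10 higher and 5 lower, and 9 of 102 in clf (8.82%), 4 higher and 5 lower. No test was made of the difference between these shares and those of all loci.

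The median log2 ratio of FPKM + 1 over tested loci was near 0 for nuclear unnamed loci, at 0.025 in pkl, -0.0067 in clf and 0.023 in lhp1. Over all other tested loci it was 0.014 in pkl, -0.0062 in clf and 0.028 in lhp1. For organelle loci it was -0.16 in pkl, -0.16 in clf and -0.24 in lhp1. For the 8 chloroplast loci alone it was 0.027 in pkl, -0.14 in clf and -0.39 in lhp1. The precision behind single nuclear ratios is low. A standard error implied by the deposited p and the ratio had a median of 0.58 on the log2 scale in pkl, 0.55 in clf and 0.56 in lhp1. For named nuclear loci at 0.5 to 5 FPKM in WT it was 0.34 in each mutant. The unnamed loci were taken without that limit, so these medians cover unlike levels of expression. In 60 unnamed loci no comparison was tested, and 117 were tested in all 3.

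**Figure D2:**
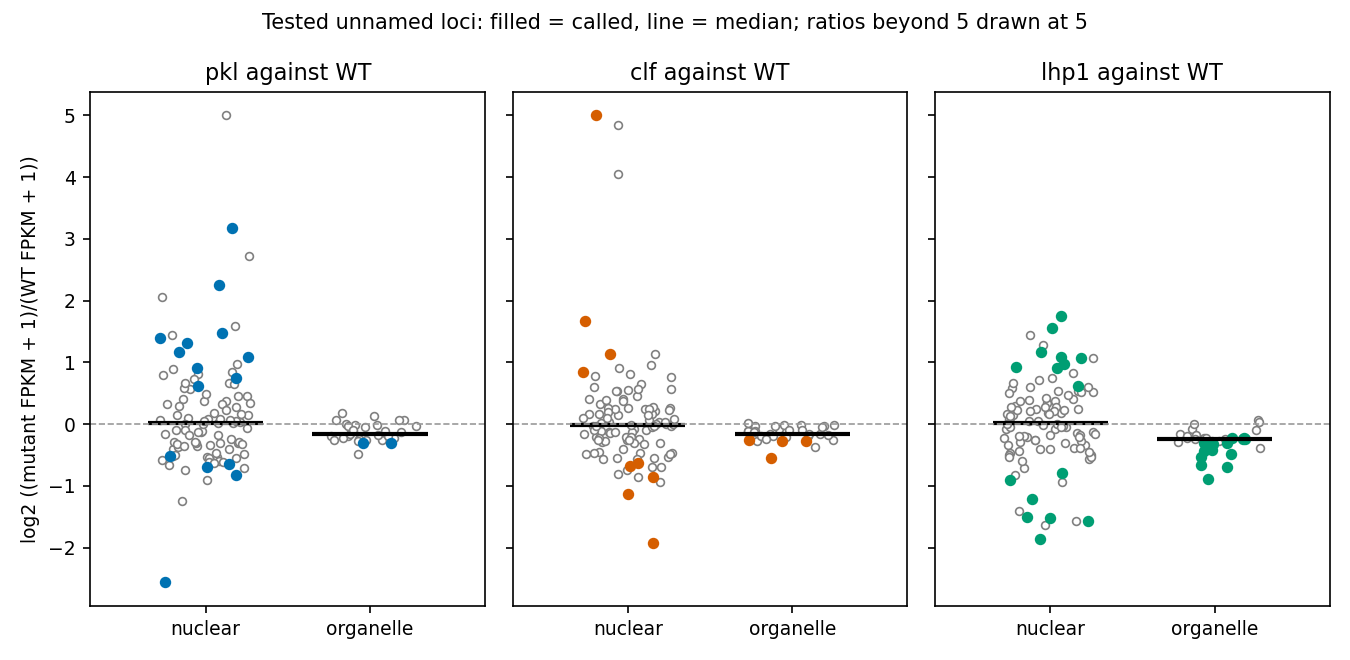
Log2 ratio of FPKM + 1 in each mutant over WT (vertical axis) for every tested unnamed locus, nuclear and organelle side by side, filled where called, with a line at the median. Nuclear medians sit near 0 and organelle medians at -0.16, -0.16 and -0.24 in pkl, clf and lhp1.

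Over the 3 comparisons, 47 unnamed loci were called at least once: 37 in 1 mutant (78.7%), 7 in 2 (14.9%) and 3 in all 3 (6.38%). Of the 6108 loci called at least once over the whole tables, 58.3% were called in 1 mutant, 30.9% in 2 and 10.8% in all 3, and the difference was not tested. The mutants share the same WT values, so agreement between them rests partly on WT. The 3 loci called in all mutants are XLOC_031439, which rose, and XLOC_001631 and the mitochondrial XLOC_031772, which fell.

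XLOC_001631 (chr1:11453552-11455523) had the highest mean FPKM over the 4 groups, and the highest value in WT, of the unnamed nuclear loci of at least 200 bases. It stood at 30.0 FPKM in pkl, 23.9 in clf, 14.1 in lhp1 and 53.8 in WT, so that all 3 mutants lay below WT and lhp1 lowest. The log2 ratios were -0.84 in pkl, -1.17 in clf and -1.93 in lhp1, each at the smallest q of the authors' deposited table, 0.000661. The standard error they imply is at most 0.21 in pkl, 0.29 in clf and 0.48 in lhp1. No RefSeq gene overlaps it. The segment printed above belongs to a 926-base match at 84.9% identity with AT4G20690 and AT4G20700, the second annotated as a putative reverse transcriptase, and 25 places in the genome match it over at least 100 bases. The table's locus for AT4G20690 stood at 0.632 FPKM in pkl, 0 in clf, 0.209 in lhp1 and 0.48 in WT and was not called. The nearest named locus, the GHMP kinase gene AT1G31910, was not called in any mutant.

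XLOC_031439 (chr5:7891024-7891612) rose in all 3 mutants. It stood at 9.45 FPKM in pkl, 18.9 in clf, 17.3 in lhp1 and 5.26 in WT. All 3 mutants lay above WT, and pkl was nearest to it. The rise was 1.80-fold in pkl, 3.60-fold in clf and 3.30-fold in lhp1, with q = 0.0263 in pkl and 0.000661 in clf and lhp1 in the authors' deposited table. RefSeq places the long non-coding RNA AT5G03615 here on the + strand, while the longest open reading frame, of 64 codons, runs on the - strand as printed above. The nearest named locus, HMGB6 (AT5G23420), a high-mobility-group DNA-binding protein gene, was not called in any mutant.

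In pkl, the 10 nuclear loci that rose span 1.60-fold to 13.3-fold where WT is above 0, with a median of 5.16-fold. The largest value is that of XLOC_019578 (chr3:11983614-11983998), at 32.0 FPKM in pkl, 2.36 in clf, 3.30 in lhp1 and 2.65 in WT. It rose 12.1-fold in pkl, and neither clf nor lhp1 was called. The locus overlaps AT3G00610, an uncharacterized RNA, and matches 11 places over at least 50% of its length, the closest at 95.9% identity.

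XLOC_019876 (chr4:2181231-2182477) stood at 8.45 FPKM in pkl, 0.781 in clf, 0.928 in lhp1 and 0.988 in WT, an 8.55-fold rise in pkl. Its neighbour 176 bases away is a locus of the pseudogenes AT4G04409 and AT4G04410. That locus stood at 40.6 FPKM in pkl, 3.29 in clf, 5.10 in lhp1 and 3.21 in WT. It was called higher in pkl and also in lhp1, where XLOC_019876 lay below WT and was not called. A copy of XLOC_019876 at 94.6% identity lies at AT4G13572, whose locus was at 0 in all 4 groups.

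XLOC_019576 (chr3:11481907-11482829) stood at 2.25 FPKM in pkl, 0.157 in clf, 0.129 in lhp1 and 0.169 in WT, the largest ratio of the pkl rises at 13.3-fold. Its nearest named locus, AT3G29639, an uncharacterized coding gene, had 0.886 FPKM in pkl and was listed at 0 in WT, and was called higher. XLOC_006087 (chr1:16416110-16418107) stood at 2.38 FPKM in pkl, 0.332 in clf, 0.677 in lhp1 and 0.367 in WT, a 6.49-fold rise in pkl. It matches AT2G27402 at 84.0% identity over 530 bases, and that gene had 120 FPKM in pkl, 17.7 in clf, 19.2 in lhp1 and 45.1 in WT.

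XLOC_024394 (chr4:1373120-1373876) stood at 5.29 FPKM in pkl, 1.31 in clf, 0.884 in lhp1 and 1.38 in WT, a 3.82-fold rise in pkl. Its copy at AT5G26970, at 89.3% identity, had 1.66 FPKM in pkl against 0.258 in WT and was not called. XLOC_028869 stood at 6.34 FPKM in pkl, 3.84 in clf, 3.94 in lhp1 and 2.26 in WT, and all 3 mutants lay above WT while only pkl was called. XLOC_001271 stood at 12.0 FPKM in pkl, 9.13 in clf, 9.13 in lhp1 and 7.50 in WT, beside the thionin-like gene AT1G25275, which rose in pkl too. Thionins are small cysteine-rich defence peptides.

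A pair of loci was listed at 0 in every group but pkl, XLOC_007936 at 0.876 FPKM and XLOC_024399 at 1.12 FPKM in pkl. XLOC_024399 has a copy at AT5G23115 with 94.3% identity. Both were called at the smallest q of the authors' deposited table, and no fold can be given against 0.

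Of the nuclear loci that fell in pkl and were above 0 in both groups, XLOC_025525 (chr5:8221255-8223206) had the largest ratio. It stood at 0.0908 FPKM in pkl, 4.48 in clf, 1.78 in lhp1 and 5.43 in WT. The locus was 59.9-fold lower in pkl and 3.05-fold lower in lhp1, both called, while the clf value lay near that of WT and was not called. The low pkl value makes the size of the pkl fold imprecise, with an implied standard error of 1.72 on the log2 scale. RefSeq places the coding gene AT5G24215 here. The neighbour AT5G24210, an alpha/beta-hydrolase gene, stood at 41.3 FPKM in pkl, 61.0 in clf, 36.5 in lhp1 and 97.7 in WT, and was called lower in all 3.

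XLOC_008719 was listed at 0 FPKM in pkl and had 0.211 in clf, 0.0967 in lhp1 and 0.434 in WT. It lies 915 bases from LURP1 (AT2G14560), a gene known for late induction in the defence against oomycetes, which stood at 2.53 FPKM in pkl against 98.8 in WT and fell too. XLOC_013196 was listed at 0 FPKM in pkl, 0.175 in clf, 0.138 in lhp1 and 0.615 in WT. Both XLOC_008719 and XLOC_013196 are under 1 FPKM in every group.

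XLOC_014283 (chr3:7471100-7472490) was the only unnamed locus called in opposite directions. It stood at 0.693 FPKM in pkl, 2.93 in clf, 4.99 in lhp1 and 1.65 in WT. It fell in pkl with q = 0.0352 and rose in lhp1 with q = 0.000661, in the authors' deposited table. RefSeq places the non-coding genes AT3G04105 and AT3G04115 here. The nearest named locus, the DOF zinc finger gene AT3G21270, was called lower in lhp1, at 12.3 FPKM against 16.9 in WT. It was not called in pkl or clf.

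In clf, 4 nuclear loci rose and 5 fell. Besides XLOC_031439 and the 150-base XLOC_031447, the rises are XLOC_016569 and XLOC_015593. XLOC_016569 (chr3:1398570-1400577) stood at 0.139 FPKM in pkl, 1.24 in clf, 3.19 in lhp1 and 0.245 in WT. It rose 5.05-fold in clf and 13.0-fold in lhp1, while the pkl value lay below WT and was not tested. RefSeq places AT3G05035 here, annotated as an exportin-4 protein, and the closest long match is AT3G04490 at 89.4% identity over 635 bases, which was not called in any mutant. The neighbour HST (AT3G05040, HASTY), known for its part in microRNA biogenesis, was called higher in lhp1, at 9.24 FPKM against 6.82 in WT. XLOC_015593 had 1.19 FPKM in clf and 0.444 in lhp1 and was listed at 0 in pkl and WT. The RefSeq model of AT3G48770, its nearest named locus 521 bases away, overlaps it, so it is not independent of that gene. AT3G48770 stood at 0.129 FPKM in pkl, 0.367 in clf, 0.748 in lhp1 and 0.173 in WT. That gene was called higher in lhp1 and was not tested in clf. XLOC_015593 has 3 copies elsewhere, the closest at 92.3% identity.

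The falls in clf were 2.22-fold to 2.94-fold where clf was above 0. XLOC_004256 (chr1:1480116-1480908) stood at 2.74 FPKM in pkl, 2.00 in clf, 1.90 in lhp1 and 4.43 in WT, called lower in clf and lhp1. Its neighbour, the transcribed pseudogene AT1G05135, stood at 47.7 FPKM in pkl, 42.3 in clf, 21.1 in lhp1 and 71.8 in WT and was called lower in all 3. XLOC_016216 stood at 0.732 FPKM in pkl, 0.383 in clf, 0.813 in lhp1 and 1.13 in WT. The RefSeq model of AT3G60970, its nearest named locus 196 bases away, overlaps it, so it is not independent of that gene. AT3G60970 stood at 0 FPKM in pkl, 0.0432 in clf, 0.172 in lhp1 and 0.0117 in WT and was not called. XLOC_016216 also has a copy at AT3G60160, with 95.0% identity over 1690 bases. The locus of that gene stood at 1.80 FPKM in pkl, 7.41 in clf, 11.2 in lhp1 and 2.18 in WT. It was called higher in clf and lhp1. XLOC_008905 stood at 1.45 FPKM in pkl, 0.809 in clf, 1.13 in lhp1 and 1.88 in WT. At XLOC_004256, XLOC_016216 and XLOC_008905 every mutant lay below WT.

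XLOC_031436, of 322 bases, had 0.589 FPKM in pkl, was listed at 0 in clf, and had 0.271 in lhp1 and 2.78 in WT. Its neighbour CHIL (AT5G05270), a chalcone-isomerase-like gene that promotes flavonoid production, fell in clf as well, at 28.0 FPKM against 43.3 in WT. In pkl CHIL was called higher, at 75.0 FPKM, while XLOC_031436 lay below WT and was not called. In lhp1 neither was called.

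In lhp1, 9 nuclear loci rose and 7 fell. XLOC_013195 had the highest FPKM among the loci called higher in lhp1 alone, at 2.85 FPKM in pkl, 4.19 in clf, 8.22 in lhp1 and 3.70 in WT. XLOC_026702 stood at 1.43 FPKM in pkl, 2.33 in clf, 5.35 in lhp1 and 2.01 in WT, and was called in lhp1 alone. Its neighbour AT5G44568, an uncharacterized gene, was called lower in all 3 mutants. AT5G44568 stood at 9.79 FPKM in pkl, 22.3 in clf, 13.4 in lhp1 and 37.6 in WT. XLOC_009473, over the uncharacterized coding gene AT2G27313, stood at 0.679 FPKM in pkl, 0.975 in clf, 1.97 in lhp1 and 0.578 in WT. In each of these 3 unnamed loci, lhp1 held the highest of the 4 values.

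Another 3 loci that rose in lhp1 were listed at 0 in WT. XLOC_001966 (chr1:14166510-14169230) had 0 FPKM in pkl, 0.253 in clf and 1.12 in lhp1. Its neighbour MCT1 (AT1G37140), which encodes a MEI2-type RNA-binding domain, stood at 0.0361 FPKM in pkl, 0.397 in clf, 0.885 in lhp1 and 0.0191 in WT and was not called. XLOC_024402 had 0.0433 FPKM in pkl, 0.335 in clf and 0.89 in lhp1, and XLOC_024403 had 0 in pkl, 0.0282 in clf and 0.529 in lhp1. These 2 are adjacent and share the neighbour AT4G19420, a pectin acetylesterase gene, which rose to 102 FPKM in pkl, 152 in clf and 122 in lhp1, against 68.6 in WT. XLOC_024402 lies 54 bases from it, and the RefSeq model of that gene overlaps it, so the pair is not independent of that gene or of each other.

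Of the 7 nuclear loci that fell in lhp1, 3 were listed at 0 there. XLOC_007042 had 0.784 FPKM in pkl, 0.551 in clf and 1.98 in WT. XLOC_013824 had 0.517 FPKM in pkl, 0.699 in clf and 1.83 in WT, and XLOC_021307 had 0.122 in pkl, 0.176 in clf and 0.739 in WT. XLOC_011962, over the uncharacterized coding gene AT2G25297, stood at 1.87 FPKM in pkl, 1.29 in clf, 0.392 in lhp1 and 3.01 in WT, 7.67-fold lower in lhp1. All 4 also had their highest value in WT, though neither pkl nor clf was called at any of them.

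**Figure D3:**
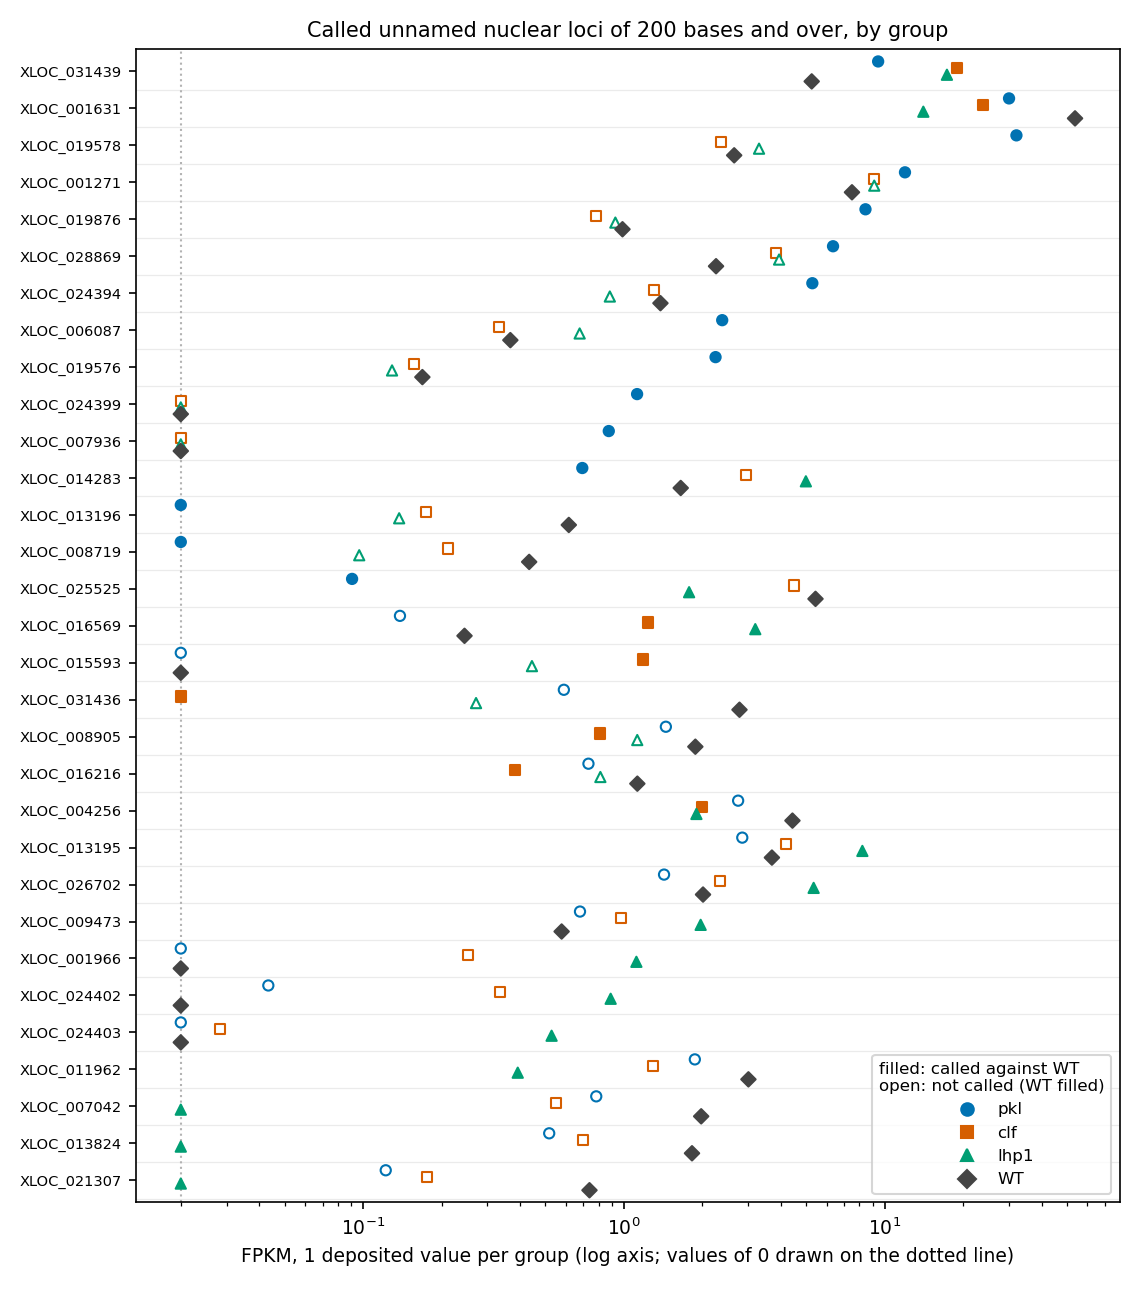
FPKM (log axis, values of 0 on the dotted line) in pkl, clf, lhp1 and WT for the called unnamed nuclear loci of at least 200 bases, filled where the mutant was called against WT. XLOC_019578, for example, stands at 32.0 FPKM in pkl, 2.36 in clf, 3.30 in lhp1 and 2.65 in WT.

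Large ratios without a call were also found, and are named after their values were seen unless the naming rule chose them. XLOC_007662 (chr1:28515251-28515906), over the coding gene AT1G75945, stood at 35.1 FPKM in pkl, 29.1 in clf, 0 in lhp1 and 0.0502 in WT. It was not called in pkl or clf, with q = 0.463 in both in the authors' deposited table. XLOC_022947, over AT4G13577, stood at 0.625 FPKM in pkl, 16.1 in clf, 1.83 in lhp1 and 0.0337 in WT, and all 3 comparisons had the same p, 0.2325, in the authors' deposited table. XLOC_008217, over AT2G05655, had 7.07 FPKM in pkl, 0 in clf and lhp1 and 0.221 in WT, not called. XLOC_008807 was listed at 0 in all 3 mutants and had 3.42 FPKM in WT, and no comparison was tested. These values cannot be split by replicate here, so whether 1 library carries them was not tested.

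Over the 3 mutants there were 40 calls at unnamed nuclear loci, and at 12 of them the nearest named locus was called in the same direction. In pkl the neighbour was called in the same direction at 5 of 15 called loci and in the opposite direction at 0. In clf the counts were 2 and 1 of 9, and in lhp1 they were 5 and 2 of 16. Over called named nuclear loci, the nearest other named locus was called in the same direction at 6.37% in pkl, 6.19% in clf and 8.85% in lhp1. The 40 calls come from 32 loci, and the mutants share the same WT values. Among the 12 same-direction calls, 2 are at AT4G19420. XLOC_025525 with AT5G24210 counts in both pkl and lhp1, and XLOC_004256 with AT1G05135 in both clf and lhp1. The 12 are therefore not independent, and no test was made. Within 1000 bases the same-direction counts were 3 of 10 in pkl, 1 of 6 in clf and 2 of 8 in lhp1. Because the tables give no strand, an unnamed locus this close cannot be told apart from an extension of its neighbour.

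**Figure D4:**
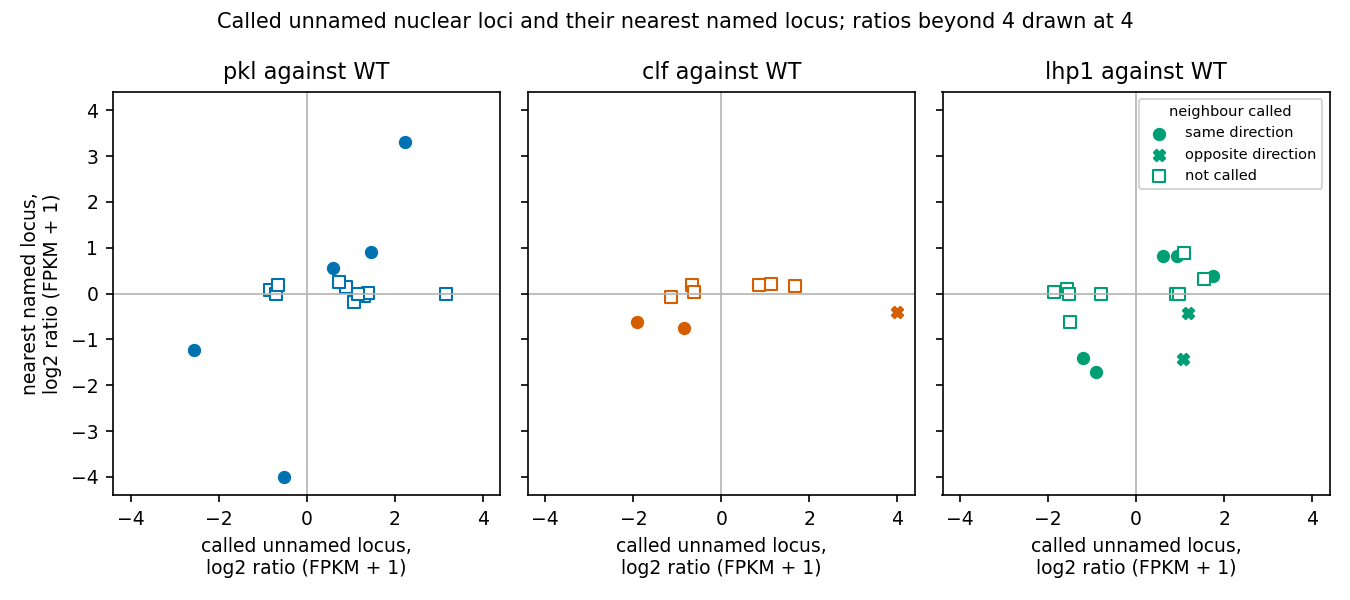
Log2 ratio of FPKM + 1 of the nearest named locus (vertical axis) against that of each called unnamed nuclear locus (horizontal axis), 1 panel per mutant against WT, with circles for neighbours called in the same direction, crosses for the opposite and squares for those not called. Same-direction pairs number 5 of 15 in pkl, 2 of 9 in clf and 5 of 16 in lhp1.

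Of the 10 nuclear loci that rose in pkl, 5 have a copy elsewhere in the genome and 6 lie within 2 Mb of an excluded interval, a limit chosen with the values known. Of the 36 nuclear loci with a genomic copy (at least 50% of the length at 80% identity or more), 21 were tested in pkl, and 5 rose and 0 fell. In clf 2 of 23 tested rose and 2 fell, and in lhp1 0 of 19 were called. Of the 114 loci without a copy, 5 rose and 5 fell among 80 tested in pkl, 2 rose and 3 fell among 79 in clf, and 9 rose and 7 fell among 85 in lhp1. Over all tested loci the shares were 6.73% higher and 6.74% lower in pkl, 7.11% and 5.28% in clf, and 11.1% and 10.6% in lhp1. Within 2 Mb of an excluded interval, 6 of 32 tested loci rose in pkl and 2 fell, against 4 rises and 3 falls among the 69 farther away. Of 1999 named nuclear loci tested in pkl in the same 2 Mb, 136 rose and 165 fell. The difference between these shares was not tested. By RefSeq class, the pkl rises are 2 of 29 tested loci over coding genes, 6 of 59 over non-coding genes only and 2 of 13 over no gene.

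The 10 unnamed loci just outside the bounds of the intervals left out ranged from 0 to 32.0 FPKM over the 4 groups, the highest being XLOC_019578 and the next XLOC_019876 at 8.45. Of the 8 just within the bounds, XLOC_018096 stood at 56.3 FPKM in pkl, 56.9 in clf, 60.1 in lhp1 and 58.6 in WT, and the others reached at most 1.83. Of the 18 loci left out, 10 were tested in pkl, 6 in clf and 7 in lhp1. Among those tested, 2 were called higher in pkl, 0 were called in clf and 1 was called lower in lhp1. Over all tested loci, 6.73% were called higher in pkl, 12.4% either way in clf and 10.6% lower in lhp1. The difference from these shares was not tested.

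The 66 organelle loci lay mostly below WT in all 3 mutants, most often in lhp1. Values were below WT at 48 loci in pkl, 49 in clf and 57 in lhp1, and 40 of 66 had their highest value in WT. The calls were all lower, at 2 of 31 tested in pkl (6.45%), 4 of 31 in clf (12.9%) and 14 of 31 in lhp1 (45.2%). Over all tested loci, lower calls made 6.74% in pkl, 5.28% in clf and 10.6% in lhp1, so the pkl share lies near the background. These loci are long, up to 38114 bases, and share an organelle genome, so they are not independent of one another. The 3 green shoot markers, all nuclear genes, summed to 14887 FPKM in pkl, 11249 in clf, 9964 in lhp1 and 14079 in WT. RBCS1A carries most of this sum, at 14257 FPKM in pkl, 10608 in clf, 9334 in lhp1 and 13319 in WT, and was not called. LHCB1.2 lay above WT in all 3 mutants, at 252 FPKM in pkl, 227 in clf, 246 in lhp1 and 178 in WT, and was not called. LHCA1 was called lower in all 3, at 378 FPKM in pkl, 414 in clf, 385 in lhp1 and 581 in WT. The part of these markers in the organelle values was not tested.

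Of the 8 chloroplast loci, 5 were called lower in lhp1 and none in pkl or clf, and all 8 had their lowest value in lhp1. In pkl 4 of them lay below WT, and 4 had their highest value of all groups there. The 8 loci had a median ratio to WT of 1.03 in pkl, 0.845 in clf and 0.668 in lhp1. Their FPKM summed to 22.0 in pkl, 20.6 in clf, 13.8 in lhp1 and 23.2 in WT, and 2 of the 8, XLOC_031724 and XLOC_031726, have the same coordinates.

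Among the 58 mitochondrial loci the median ratio to WT was 0.767 in pkl, 0.817 in clf and 0.646 in lhp1, with 29 loci lowest in lhp1. XLOC_031772, called lower in all 3 mutants, stood at 0.473 FPKM in pkl, 0.497 in clf, 0.353 in lhp1 and 0.815 in WT. XLOC_031742 stood at 2.38 FPKM in pkl, 1.67 in clf, 1.45 in lhp1 and 2.88 in WT and was called lower in clf and lhp1. XLOC_031756 stood at 0.936 FPKM in pkl, 1.25 in clf, 0.935 in lhp1 and 1.40 in WT and was called lower in pkl and lhp1. Most others are weak, with a median of 0.234 FPKM in pkl, 0.244 in clf, 0.186 in lhp1 and 0.315 in WT.

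The strongest mitochondrial loci lay close to WT in value. XLOC_031735 stood at 37.8 FPKM in pkl, 36.6 in clf, 39.3 in lhp1 and 37.6 in WT, and XLOC_031787 at 23.2 in pkl, 25.3 in clf, 25.0 in lhp1 and 24.9 in WT. Neither was called in any mutant. Because these 2 loci carry most of the signal, the summed mitochondrial FPKM was 91.9% of WT in pkl, 92.3% in clf and 91.3% in lhp1.

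The tables also list both organelles under a second pair of names. A further 141 loci on a sequence called Mt and 130 on one called Pt carry gene names and are listed at 0 in all 4 groups. The positions of 82 of the Mt loci and 93 of the Pt loci overlap the unnamed mitochondrial and chloroplast loci, at least in part. Of the bases in the named loci, 63.7% on Mt and 64.4% on Pt lie at positions covered by the unnamed loci. The signal of each organelle therefore stands under the unnamed loci alone in these tables, if both names refer to the same sequence, which the files do not state.

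**Figure D5:**
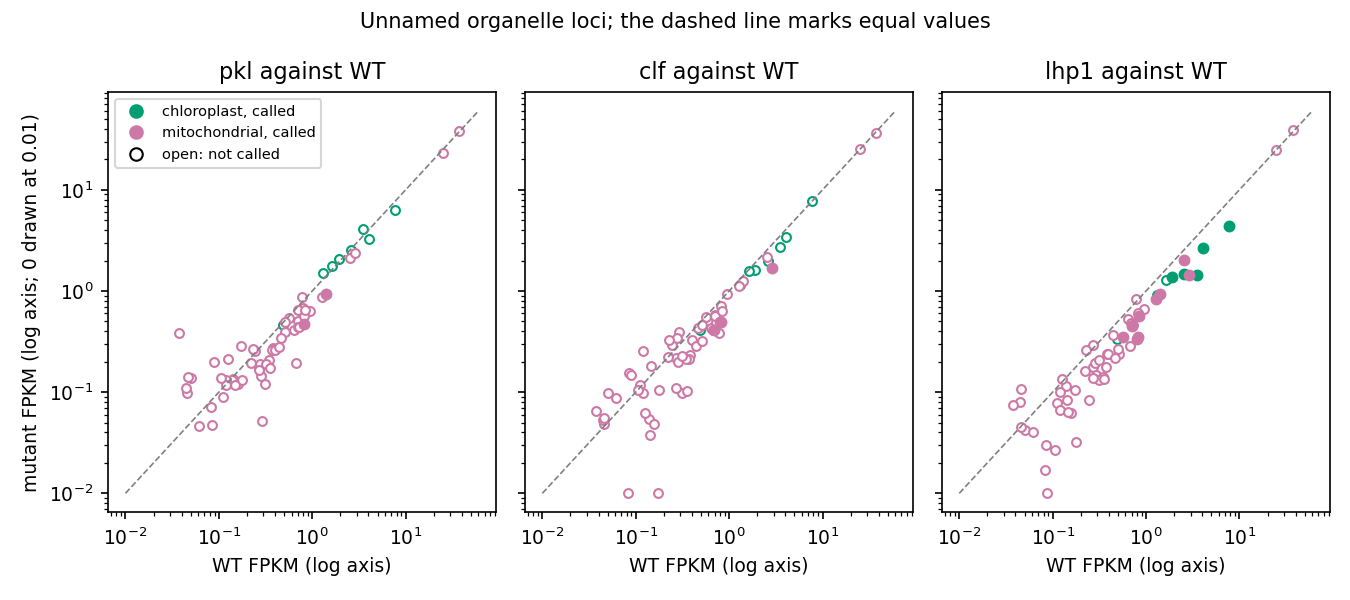
FPKM in each mutant (vertical, log axis, 0 drawn at 0.01) against FPKM in WT (horizontal, log axis) for the 66 organelle loci, green for chloroplast and pink for mitochondrial, filled where called lower. Of the 66 loci, 48 lie below the dashed line of equal values in pkl, 49 in clf and 57 in lhp1.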

How the data were processed

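RNA was sequenced from 12 libraries of 4 genotypes, 3 per genotype by their titles. Per the submitters' processing notes, TopHat, Cufflinks 2.1.1 and Cuffdiff 2.1.1 were used with the genome build TAIR10. The authors deposited 3 Cuffdiff tables, each with 1 FPKM value per group and locus, and a p-value and q-value for the mutant against WT. Strand setting, normalisation and the division of reads among copies are not stated in any label or header. The depth is unknown, and 0 columns of single libraries were used.

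A locus counted as called where its test ran and the deposited q was under 0.05. The largest called p, 0.00845, is the same in all 3 tables. Ratios were computed from the FPKM values, with 1 FPKM added for medians. Implied standard errors divide the absolute log2 ratio by the normal quantile of the deposited p; the smallest p, 5e-05, gives an upper bound. Loci were matched to the RefSeq annotation and sequence of TAIR10.1, after 28808 of 28809 single-gene nuclear loci were found to overlap the same gene there, and to genomic copies with BLAST+ (E-value up to 1e-10). The organelle sequences of TAIR10.1 were not used. Calling, adjustment and neighbour search were tested on simulated data. The tools were Python 3.11.15, pandas 2.3.3, numpy 2.4.6, scipy 1.17.1, matplotlib 3.10.9, BLAST+ 2.17.0, samtools 1.23.1.

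Loci named in the text are, per mutant and direction, up to 8 called loci of at least 200 bases with at least 1 FPKM in the higher group, those called in all 3 mutants, the 6 strongest, those under 200 bases and called loci at 0 in 1 group, each with its nearest named locus. Other loci, such as those with large ratios but no call, those at 0 in all groups and those at the interval bounds, were named after their values were seen. The loci and lists were chosen with earlier results of these data known.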

Additional observations from a re-analysis of the deposited data

Results flagged for a closer look

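XLOC_014283 was called lower in pkl, at 0.419 times the WT value, and higher in lhp1, at 3.02 times the WT value. The difference between the 2 mutants was not tested.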

How the results depend on the processing

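No paired analysis was possible because the tables hold 1 value per group, and for the same reason no library could be left out. With q under 0.01, 8 unnamed loci were called in clf and 19 in lhp1, and 1 in all 3 mutants. With at least a 2-fold change 19 were called in lhp1, and on chromosomes 1 to 5 only, 16. Organelle loci alone gave 2 calls in pkl, 4 in clf and 14 in lhp1 (added after seeing the data). The other alternatives for call counts stayed within 1.5 times. With at least 1 FPKM in the higher group, the median log2 ratio over all unnamed loci tested in pkl was 0.059, against -0.074 without that limit; the other medians moved by less than 0.1. Organelle loci below WT numbered 8 in pkl, 12 in clf and 11 in lhp1 of the 13 reaching 1 FPKM, and 43 to 58 of 66 under 2 other scalings. Same-direction neighbours within 1000 bases numbered 3 in pkl, 1 in clf and 2 in lhp1. Of 50 calls at named loci, 15 missed q under 0.01 and 1 missed the threshold with p-values adjusted within the table. Depth is unknown, so no counting error can be given.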
